A study of Onthophagus taurus with 96 samples.

Results

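The genes described here are those of the Toll and Imd pathways in the bull-headed dung beetle *Onthophagus taurus*, chosen by name: 10 gene names (*tl*, *traf6*, *myd88*, *pll*, *tub*, *cact*, *spz*, *imd*, *rel* and *key*, each with the prefix Dmel-Tmp-) were looked for among the 17483 annotated genes, and 8 were each carried by 1 gene. No gene carried the name *tub* or *key*, so those adaptors were not analysed here. The series holds 96 RNA-seq libraries, 6 for each combination of sex, treatment and tissue. Final-instar larvae had been injected with double-stranded RNA (dsRNA) in 3 μl, and pupae were dissected within a day of pupation. The treatment was 0.5 μg of dsRNA against *doublesex* (*dsx*), the gene whose sex-specific isoforms direct sexual differentiation in insects (dsxRNAi). Control animals received 1 μg of vector-derived dsRNA, so injection itself was common to both, while the dose was not. The tissues were brains, thoracic horns, head horns and genitalia, the last 3 being epithelia. According to the methods, tissues were taken from the same pupae, but the labels do not say which libraries belonged to 1 animal.

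In *Drosophila*, where the roles below were established, Toll signalling begins when serine proteases cleave Spätzle (*spz*), which then binds the receptor Toll (*tl*). The adaptor MyD88 (*myd88*) and the kinase Pelle (*pll*) pass the signal on, TRAF6 (*traf6*) is an adaptor that binds Pelle, and the inhibitor Cactus (*cact*) is degraded so that NF-κB proteins enter the nucleus. The Imd pathway starts at peptidoglycan receptors, runs through the adaptor Imd (*imd*) and ends at the NF-κB protein Relish (*rel*). Both arms switch on antimicrobial peptide genes, and Toll also patterns the dorsoventral axis of the embryo.

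The ligand Dmel-Tmp-spz (*spz*) is OTAU016941 (scaffold 2724, plus strand, 4868 to 8525 of genome v0.5.3), and the receptor Dmel-Tmp-tl (*tl*) is OTAU006712 (scaffold 17, plus strand, 9073 to 17228). Downstream lie Dmel-Tmp-myd88 (*myd88*), OTAU004524 (scaffold 26, plus strand, 402481 to 406886), Dmel-Tmp-pll (*pll*), OTAU009485 (scaffold 103, plus strand, 95103 to 97204), and Dmel-Tmp-traf6 (*traf6*), OTAU008431 (scaffold 61, plus strand, 136511 to 137889). The inhibitor Dmel-Tmp-cact (*cact*) is OTAU009758 (scaffold 466, plus strand, 150199 to 153773). On the Imd side, Dmel-Tmp-imd (*imd*) is OTAU002850 (scaffold 4, plus strand, 1300159 to 1302272) and Dmel-Tmp-rel (*rel*) is OTAU009869 (scaffold 506, minus strand, 25548 to 48250). No member shares a scaffold with another. All 8 passed the filter on low counts in every comparison.

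Libraries held 3615803 to 19008005 counted reads (median 8518004). Levels are given as CPM, counts scaled to a common library size after trimmed mean of M values (TMM) normalization, unless FPKM is named. FPKM values are those deposited by the authors, which divide by gene length and do not carry these TMM factors. The TMM factors ran from 1.52 to 1.56 in brains, 0.36 to 1.13 in head horns, 0.44 to 1.04 in thoracic horns and 0.76 to 1.41 in genitalia, and the 20 most abundant genes took up to 52.7% of a horn library. Median *dsx* lay between 6.93 and 20.7 CPM in the 6 dsxRNAi groups of epithelia, against 25.9 to 51.2 CPM in the 6 control groups. In brains, no group had a median *dsx* above 0.48 CPM. One control female and 1 dsxRNAi female library of genitalia, S89 and S76, correlated better with male genitalia (median r = 0.952 and 0.956) than with female genitalia (0.876 and 0.896). By smaller margins, the dsxRNAi females S75 and S78 were also closer to males (0.949 and 0.951) than to females (0.943 each), and the dsxRNAi males S82 and S83 closer to females (0.933 and 0.922) than to males (0.908 each). OTAU006789, chosen after its values were seen, stood at 0.63 CPM in S89 and 2.24 CPM in S76, against 8.64 to 210 CPM in the 12 male libraries of genitalia. All 15 neuron markers were higher in brains than in the epithelia. These are bulk samples, in which fewer cells of a type and less RNA per cell cannot be told apart.

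Length-adjusted levels (FPKM), which allow genes to be compared, ordered the members in control head horns as *tl* (48.9 ± 9.2 FPKM), *traf6* (28.4 ± 5.0), *cact* (18.8 ± 9.0), *imd* (18.1 ± 2.6), *spz* (9.02 ± 2.41), *rel* (8.47 ± 3.10), *pll* (5.92 ± 0.96) and *myd88* (2.06 ± 0.46; SD, n = 12 each). Ranges over the 12 libraries overlapped between neighbours in that order, except between *imd* (from 13.7 FPKM) and *spz* (up to 13.4 FPKM) and between *pll* (from 4.68 FPKM) and *myd88* (up to 2.69 FPKM). The receptor *tl* (from 35.6 FPKM) did not overlap its ligand. In control brains *traf6* led with 40.9 ± 2.8 FPKM, and *tl* stood at 18.4 ± 3.6 FPKM. Between tissues FPKM and CPM could differ in direction: *traf6* averaged 42.02 CPM in control brains and 52.7 CPM in control head horns.

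**Figure D1:**
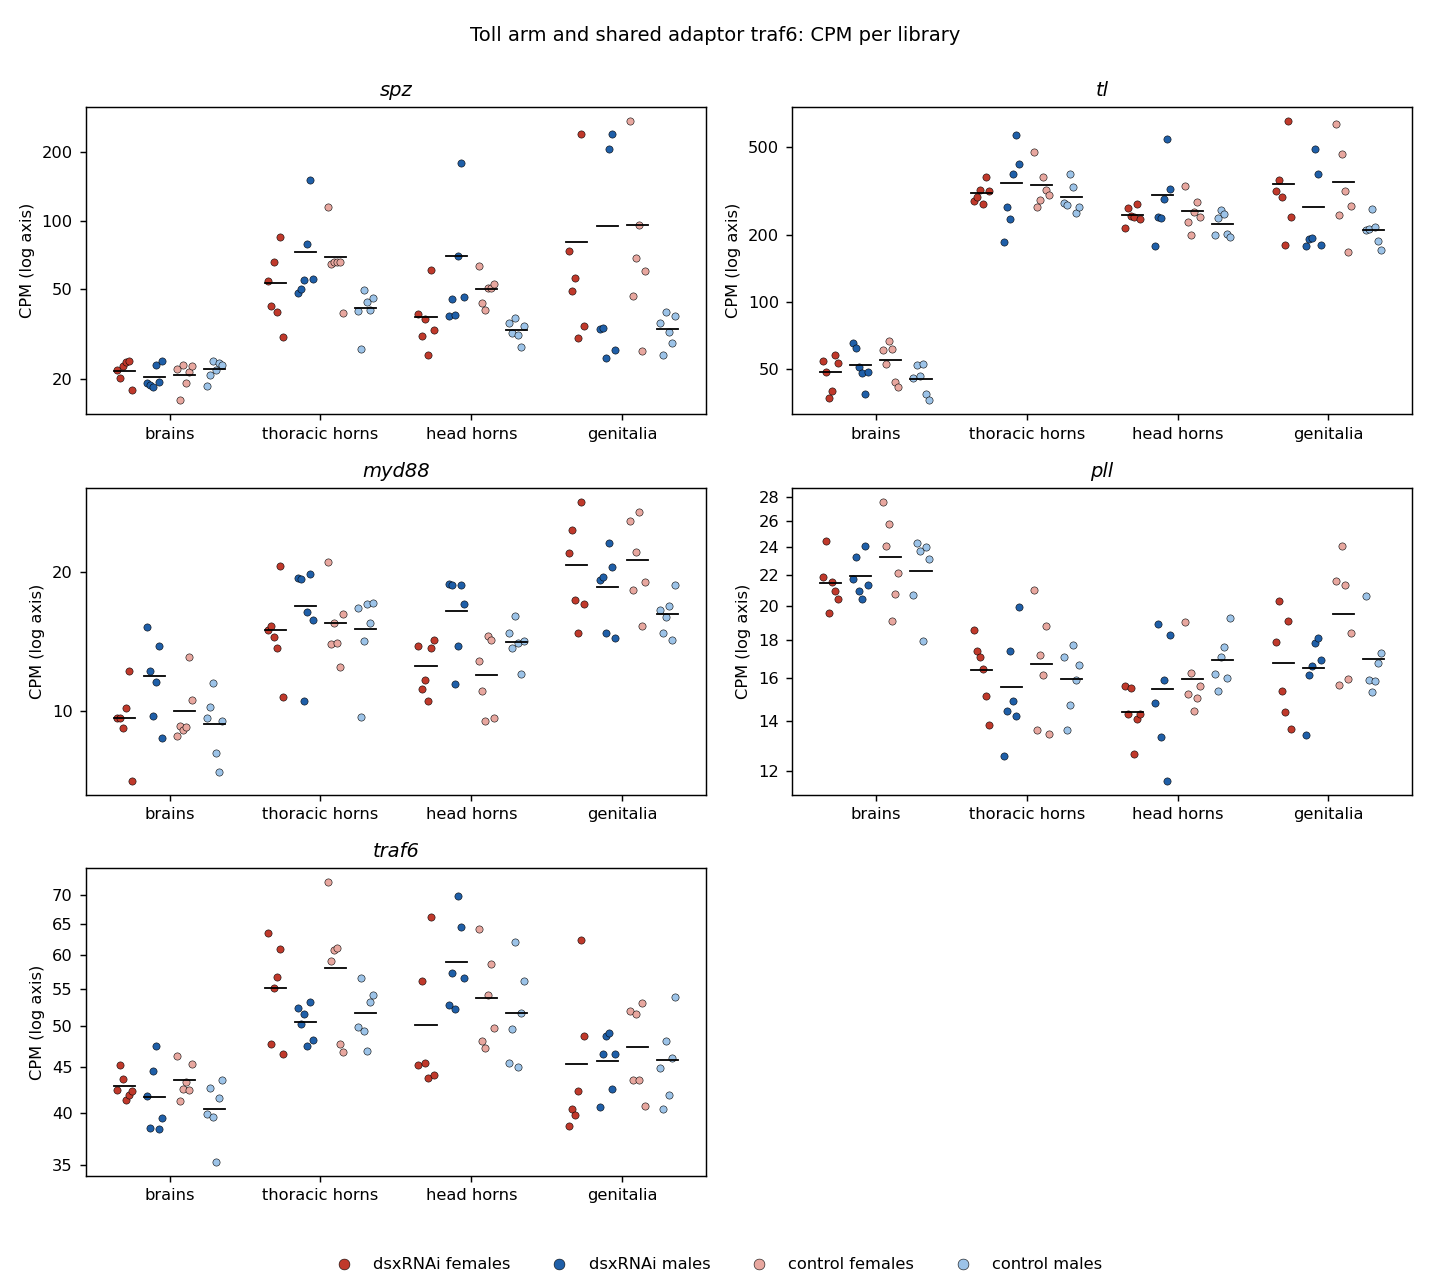
CPM (log axis) of *spz*, *tl*, *myd88*, *pll* and *traf6* in each library, by tissue and group; points are libraries and bars are means of 6. In head horns every control female library for *spz* (40.2 to 62.97 CPM) sits above every control male library (27.6 to 37.2 CPM), and single libraries such as the dsxRNAi male at 180 CPM stand apart.

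The ligand *spz* was higher in control female than in control male head horns. It ranged from 40.2 to 62.97 CPM in females (median 50.4) and from 27.6 to 37.2 CPM in males (median 32.99), so the groups did not overlap in CPM. In FPKM the groups overlapped, at 7.64 to 13.4 in females and 6.10 to 8.62 in males. The mean was 49.98 ± 7.94 CPM in females and 32.9 ± 3.4 CPM in males (SD over 6 libraries each), and the log2 fold change was 0.60 (SE 0.11, edgeR quasi-likelihood test, adjusted p = 0.00785). It was the 1 member of 8 called, in a tissue where 6.53% of all tested genes were called in either direction and 3.23% were higher in females. The share of all genes whose groups did not overlap is not given. The call was kept without any 1 of the 12 libraries (log2 fold change 0.52 to 0.65). It was lost when all 4 groups of head horns shared 1 estimate of spread (adjusted p = 0.28) and when libraries were scaled by their totals (log2 fold change 0.57, adjusted p = 0.18).

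The other 7 members had log2 fold changes between -0.37 (*cact*) and 0.19 (*tl*) in the same comparison, with overlapping groups. The receptor *tl* ranged from 201 to 333 CPM in females (median 247) and from 197 to 260 CPM in males (median 221). The adaptor *traf6* ranged from 47.3 to 64.3 CPM in females (median 52.02) and from 45.1 to 62.1 CPM in males (median 50.7). Neither passed the test (adjusted p = 0.37 for *tl* and 0.80 for *traf6*, edgeR).

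Of the wider Toll arm, 18 of 22 further genes were tested in head horns, and 2 were higher and 2 lower in control females, where 3.23% of all tested genes were higher and 3.3% lower. The Toll-related receptor *tollo* averaged 898 ± 166 CPM in females and 463 ± 68 CPM in males (SD over 6 libraries each), with a log2 fold change of 0.95 (SE 0.14, edgeR adjusted p = 0.0028). The Spätzle family ligand *spz4* was low, at 4.69 ± 1.08 CPM in females and 2.87 ± 0.42 CPM in males (log2 fold change 0.69, edgeR adjusted p = 0.046). Both had groups that did not overlap. The 2 that were lower, named after their values were seen, were the Toll-related receptor *toll-7* (log2 fold change -0.88) and the serine protease *snk* (-2.06), and their groups overlapped. Among 16 tested genes of the Imd arm, *akirin*, a nuclear factor that acts with Relish in flies, was higher in females, at 234 ± 9 against 196 ± 14 CPM in males (log2 fold change 0.26, edgeR adjusted p = 0.022). None of 4 tested effector genes was called (1 at an unadjusted p under 0.05).

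Markers of other cell types differed between the same libraries. Of 11 haemocyte markers, 4 were lower in female head horns, and their summed level ran from 1120 to 1858 CPM in control females, against 1888 to 2327 CPM in control males. Of 15 muscle markers 1 was lower, with sums of 966 to 1386 CPM in control females and 916 to 3945 CPM in control males. Summed neuron markers (15 genes) were higher in females, at 826 to 1309 CPM, against 587 to 790 CPM in control males. The sums of epidermis, fat body, glia and trachea markers overlapped between the sexes. No marker of these lists was at 0 in all libraries. The part of these cells in the *spz* difference was not tested.

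After dsxRNAi, *spz* in male head horns ranged from 37.8 to 180 CPM (median 45.4), against 27.6 to 37.2 CPM in control males (median 32.99). The groups did not overlap in CPM, but 1 dsxRNAi library, S59, stood far above the rest, which reached 70.1 CPM. In FPKM the groups overlapped, at 8.26 to 19.4 after dsxRNAi and 6.10 to 8.62 in control males. The log2 fold change was 1.06 (SE 0.37, edgeR unadjusted p = 0.0139, adjusted p = 0.22), and it was 0.51 without S59. In that library TMM scaling used the lowest factor of the series (0.36), and its 20 most abundant genes took 52.7% of reads. The part of composition was not tested.

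In female head horns, *spz* ranged from 25.5 to 60.5 CPM after dsxRNAi (median 34.8), against 40.2 to 62.97 CPM in controls (median 50.4), and the groups overlapped. The log2 fold change was -0.41 (SE 0.19, edgeR adjusted p = 0.71). The interaction of sex and treatment, which asks whether the dsxRNAi effect differed between the sexes, was -1.46 for *spz* (SE 0.43, edgeR unadjusted p = 0.0024, adjusted p = 0.082). DESeq2 gave -1.49 with an adjusted p of 0.023. Of all tested genes, 1.44% were called in that interaction by edgeR, and no member was. In the other tissues no member was called for the interaction either, by edgeR or DESeq2. Of all tested genes, edgeR called 0% in brains, 0.0105% in thoracic horns and 0.0191% in genitalia. DESeq2 called 1 gene higher and 0 lower of 15465 in brains, 2 and 10 of 10593 in thoracic horns, and 3 and 10 of 13028 in genitalia. At an unadjusted p under 0.05, 1 member passed in thoracic horns (6.38% of all genes), 1 in head horns (14.8%), and 0 in brains (4.42%) and genitalia (4.12%).

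In thoracic horns *spz* was not called in any comparison. In controls it ranged from 39.2 to 115 CPM in females (median 65.7), against 27.3 to 49.4 CPM in males (median 41.9), with a log2 fold change of 0.74 (SE 0.21, edgeR adjusted p = 0.24). In males it ranged from 47.96 to 151 CPM after dsxRNAi (median 54.9), a log2 fold change of 0.84 over control males (SE 0.28, edgeR adjusted p = 0.70). Both pairs of groups overlapped.

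Across the 16 comparisons between the sexes and between treatments, edgeR called 2 member-by-comparison values, *spz* in head horns and *imd* in genitalia, both in control animals. No member was called in brains or thoracic horns of controls, where 0.16% and 0.355% of all tested genes were. At an unadjusted p under 0.05, 0 members passed in brains (8.97% of all genes) and 1 in thoracic horns (10.4%), and DESeq2 called 0 in each. Of all genes, DESeq2 called 73 higher and 47 lower of 12509 in brains, and 119 and 80 of 10751 in thoracic horns. Between dsxRNAi females and males, 0 of 8 were called in each tissue by edgeR (shares of all tested genes 0.14% in brains, 0% in both horns and 2.06% in genitalia). At an unadjusted p under 0.05, 0 members passed in thoracic horns (3.81% of all genes) and brains (7.04%), 1 passed in head horns (6.52%), and 3 passed in genitalia (25.9%). In genitalia DESeq2 called 2 members, and 699 genes higher and 502 lower of 11298 tested.

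**Figure D2:**
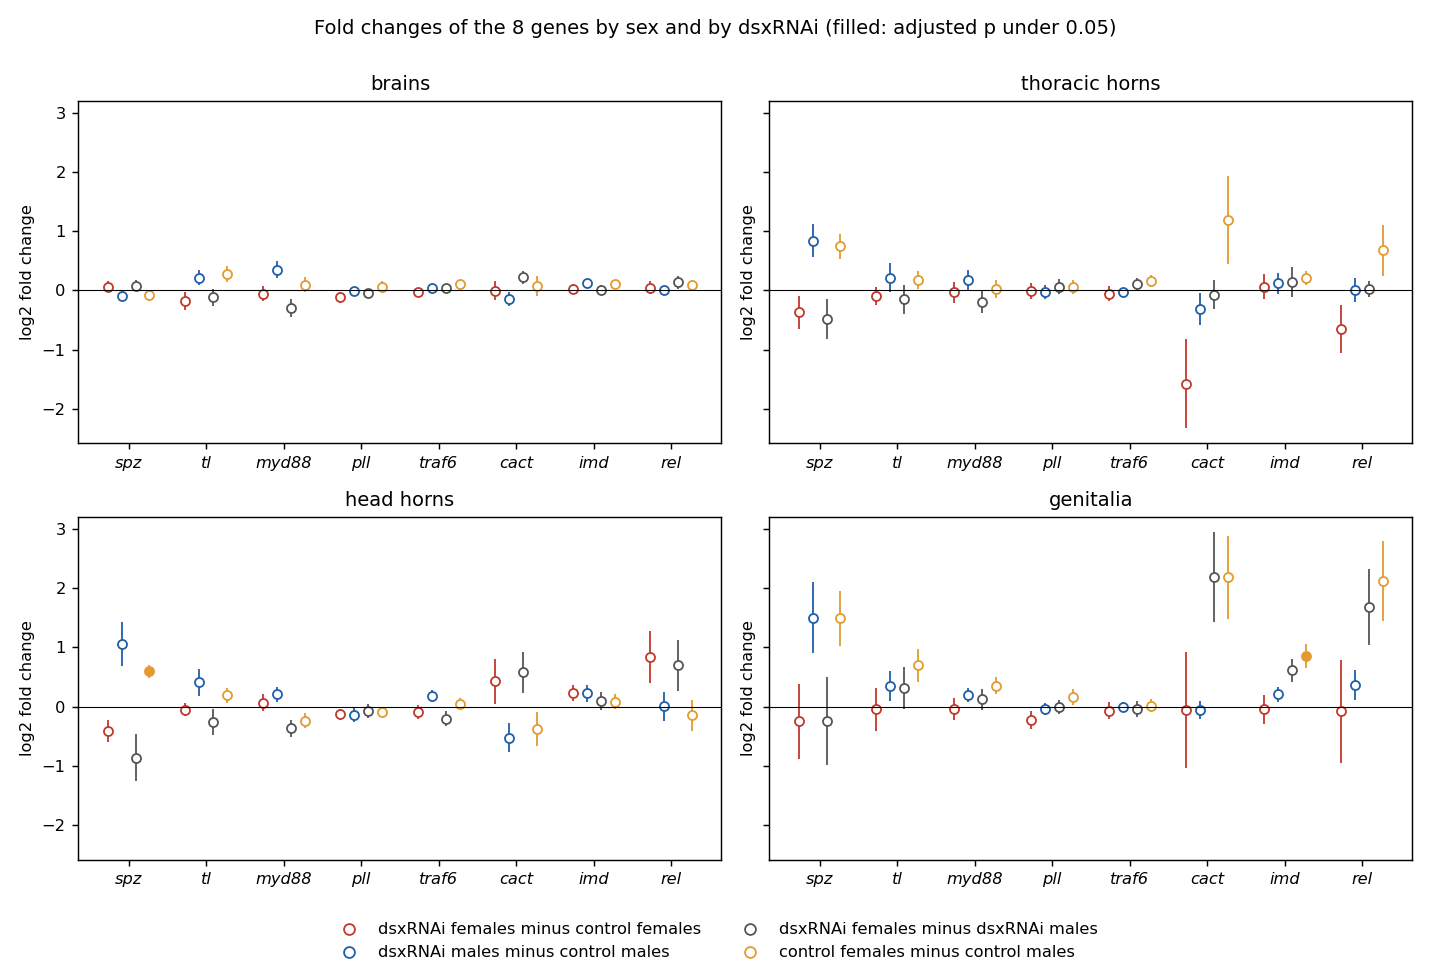
Log2 fold change of each member (bars: SE) in 4 comparisons per tissue, 6 libraries a group; filled points have an edgeR adjusted p under 0.05. The 2 filled points are *spz* in head horns (0.60) and *imd* in genitalia (0.85), both for control females over control males.

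None of the 8 members was called after dsxRNAi in either sex by edgeR or by DESeq2. In males, edgeR called 0% of all tested genes in brains, thoracic horns and genitalia and 0.393% in head horns. In females the edgeR share was 0% in 3 tissues and 0.0101% in genitalia. DESeq2 called 264 genes higher and 252 lower of 10767 in male head horns, and 88 and 19 of 11004 in male thoracic horns. In male genitalia it called 32 and 15 of 12004, and in male brains 15 and 10 of 11732. In female head horns it called 37 and 10 of 10991, and in female genitalia 1 and 12 of 14708. In female thoracic horns it called 1 and 0 of 14058, and in female brains 2 and 0 of 14780. At an unadjusted p under 0.05, 1 member passed in each male tissue: *myd88* in brains (log2 fold change 0.34) and *spz* in thoracic horns (0.84), head horns (1.06) and genitalia (1.505). In genitalia the medians were 33.3 CPM in dsxRNAi males and 33.8 CPM in control males, and only S82 (207 CPM) and S83 (242 CPM), both closer to female genitalia, exceeded the control range. Of all genes, 6.13% passed in male brains, 15.6% in male head horns, 6.59% in male thoracic horns and 6.23% in male genitalia. None of the members passed in females, where 3.56% of all genes did in brains, 6.96% in head horns, 2.23% in thoracic horns and 2.56% in genitalia.

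Genitalia held the largest levels of *imd*, *cact* and *rel*, carried to different degrees by single libraries. The adaptor *imd* ranged from 61.6 to 170 CPM in control females (median 119) and from 59.97 to 70.3 CPM in control males (median 66.6). The female library S89, at 61.6 CPM, lay within the male range. Means were 121 ± 38 CPM in females and 65.4 ± 4.4 CPM in males (SD over 6 libraries each), and the log2 fold change was 0.85 (SE 0.20, edgeR adjusted p = 0.032). It was the 1 member of 8 called, where 10.3% of all tested genes were called and 6.53% were higher in females, while 6 members passed an unadjusted p under 0.05, as did 37% of all genes.

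That call lay close to the threshold, while the log2 fold change stayed between 0.72 and 0.98 when 1 library was left out. The call was lost without any 1 of 10 of the 12 libraries (edgeR adjusted p up to 0.080), and kept without S89 (0.0005) or S90 (0.0496). Without S89, 6 members were called, *imd*, *cact*, *rel*, *spz*, *tl* and *myd88*, and 4568 genes in all, against 1028 with it. Leaving out any other library gave 121 to 342 called genes. Scaled by library totals, *imd* had a log2 fold change of 0.45 (adjusted p = 0.051), and all called genes split into 120 higher and 637 lower, against 654 higher and 374 lower under TMM.

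After dsxRNAi, *imd* in genitalia ranged from 72.6 to 170 CPM in females (median 120) and from 62.7 to 98.4 CPM in males (median 65.7). The log2 fold change between these females and males was 0.61 (SE 0.20, edgeR adjusted p = 0.11). Against control females, dsxRNAi females differed by -0.05 (SE 0.25).

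The inhibitor *cact* ranged from 38.1 to 721 CPM in control female genitalia (median 78.6) and from 44.3 to 79.5 CPM in control males (median 48.7). The NF-κB gene *rel* ranged from 139 to 2909 CPM in control females (median 356) and from 132 to 283 CPM in control males (median 161). Both pairs overlapped, and neither gene was called (log2 fold change 2.19, adjusted p = 0.059 for *cact* and 2.13, adjusted p = 0.058 for *rel*, edgeR). Leaving out single libraries moved *rel* between 0.94 and 2.35, and *cact* between 1.43 and 2.41.

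The high values of *cact* and *rel* fell in the same libraries. In dsxRNAi female genitalia, S77 had 1022 CPM of *cact* and 2692 CPM of *rel*, and S78 had 141 and 714 CPM. In control female genitalia, S87 had 721 CPM of *cact* and 2909 CPM of *rel*, and S85 had 473 and 663 CPM. The medians over all 24 libraries of genitalia were 56.5 CPM for *cact* and 257 CPM for *rel*. The 4 libraries were the 4 highest for both genes, and all were female.

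Recognition and effector genes were high in S77 and S87, and less evenly so in S85 and S78. Values of *pgrp-sa*, a peptidoglycan receptor upstream of Toll in flies, were 1808 CPM in S77, 1152 CPM in S87 and 693 CPM in S85 (median over 24 libraries 125). The antimicrobial peptide gene *def* stood at 211 CPM in S77 and 166 CPM in S87 (median 3.24), but at 14.5 CPM in S85. The protease gene *gd* stood at 1585 CPM in S77 and 1694 CPM in S87 (median 40.98). In S78, *pgrp-sa* was 214 CPM, *gd* 172 CPM and *def* 34.2 CPM. High *def* also occurred without high *cact*, at 87.3 CPM in the dsxRNAi male S81 and 28.8 CPM in the control male S94, with *cact* at 55.6 and 46.5 CPM. These genes were named after their values were seen.

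**Figure D3:**
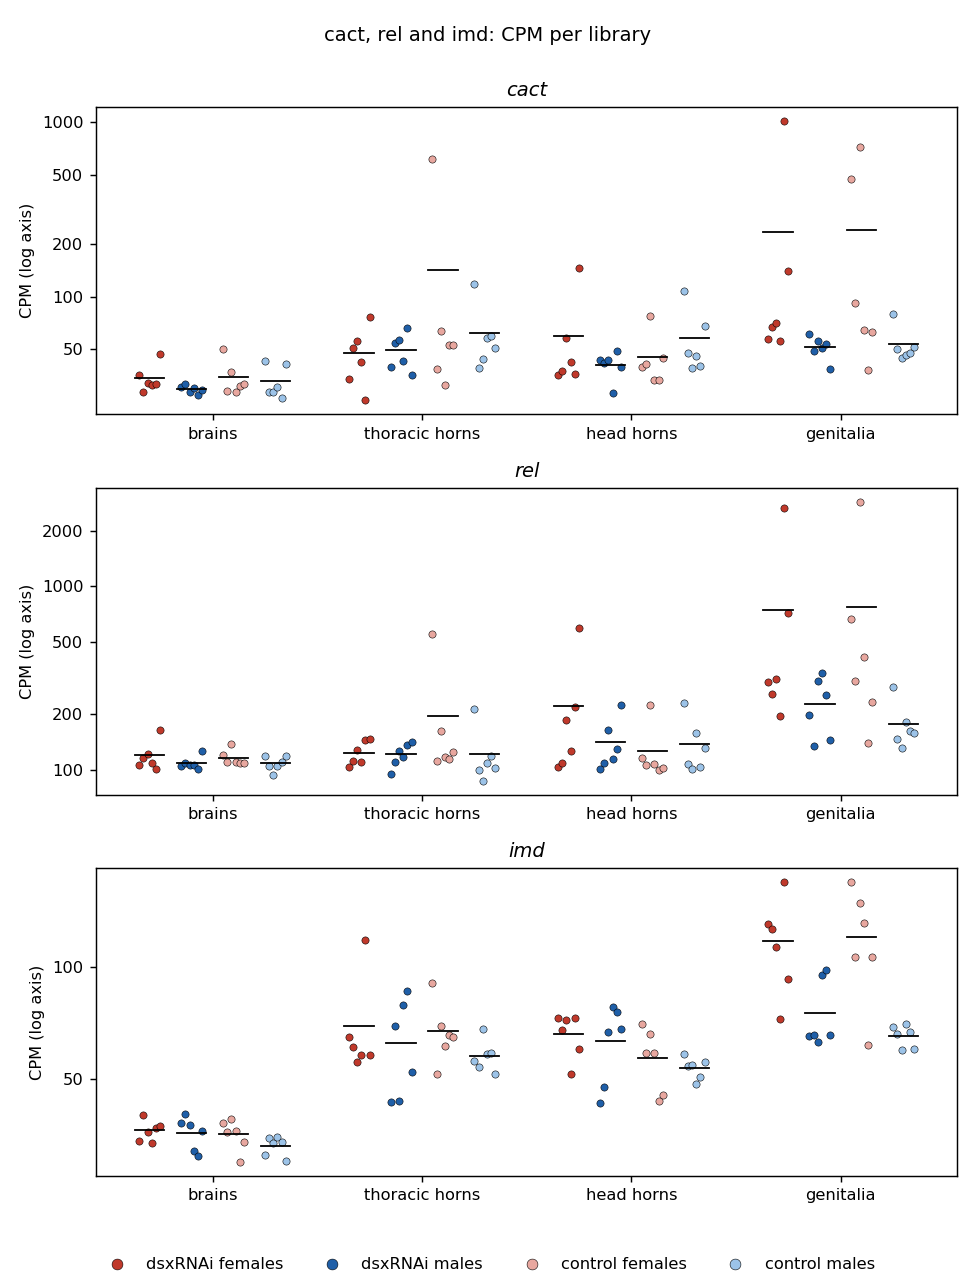
CPM (log axis) of *cact*, *rel* and *imd* in each library, by tissue and group; points are libraries and bars are means of 6. In genitalia, dsxRNAi and control females each hold a library far above the rest for *rel* (2692 and 2909 CPM), while the highest male library reaches 336 CPM.

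Single horn libraries showed the same pair. In control female thoracic horns, S37 had 613 CPM of *cact* and 549 CPM of *rel*, against 24-library medians of 51.8 and 117 CPM, with *pgrp-sa* at 2479 and *def* at 44.96 CPM. In dsxRNAi female head horns, S54 had 146 CPM of *cact* and 590 CPM of *rel*, with *def* at 34.9 CPM and *pgrp-sa* at 178 CPM. In thoracic horns high *pgrp-sa* did not always go with high *cact*: S29, at 1591 CPM of *pgrp-sa*, had the lowest *cact* of the tissue (25.5 CPM), and S35 and S39, at 1373 and 1351 CPM, had 66.1 and 63.4 CPM. Brains varied less, with *cact* between 26.2 and 50.1 CPM and *rel* between 93.8 and 164 CPM over 24 libraries. The dsxRNAi female brain S6 had the highest *rel*, *def* (5.68 CPM) and *gd* (15.8 CPM) of the 24, with *cact* at 47.2 CPM.

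High ligand and receptor together fell partly in other libraries. In dsxRNAi males, *spz* and *tl* stood at 180 and 541 CPM in head horn library S59 and at 151 and 568 CPM in thoracic horn library S35. For *tl* this depended on the TMM scaling: in the FPKM values S59 (54.4) lay below S60 (63.02) of its own group and S35 (71.1) below S36 (79.1), while *spz* was still the highest of its tissue in S59 (19.4 FPKM) and S35 (20.3 FPKM). In dsxRNAi male genitalia they stood at 207 and 488 CPM in S82 and at 242 and 379 CPM in S83. In S82 and S83, *cact* was 50.6 and 53.5 CPM, near the 24-library median. The control female S85 and the dsxRNAi female S77 were high in all 4 genes, with *spz* at 276 and 241 CPM and *tl* at 634 and 655 CPM. So was the control female thoracic horn S37 in CPM, with *spz* at 115 CPM and *tl* at 476 CPM. In FPKM, *tl* in S37 (57.7) lay below S42 (72.2) of its own group, and *spz* (14.94) just below S41 (15.03). Over the 16 group means of log2(CPM + 1), Pearson's r was 0.90 for *cact* with *rel*, 0.92 for *imd* with *myd88* and 0.86 for *spz* with *tl*. Only *pll* ran against *tl* (-0.87) among pairs with *tl*. These correlations are descriptions over 16 groups, which share tissues and pupae.

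**Figure D4:**
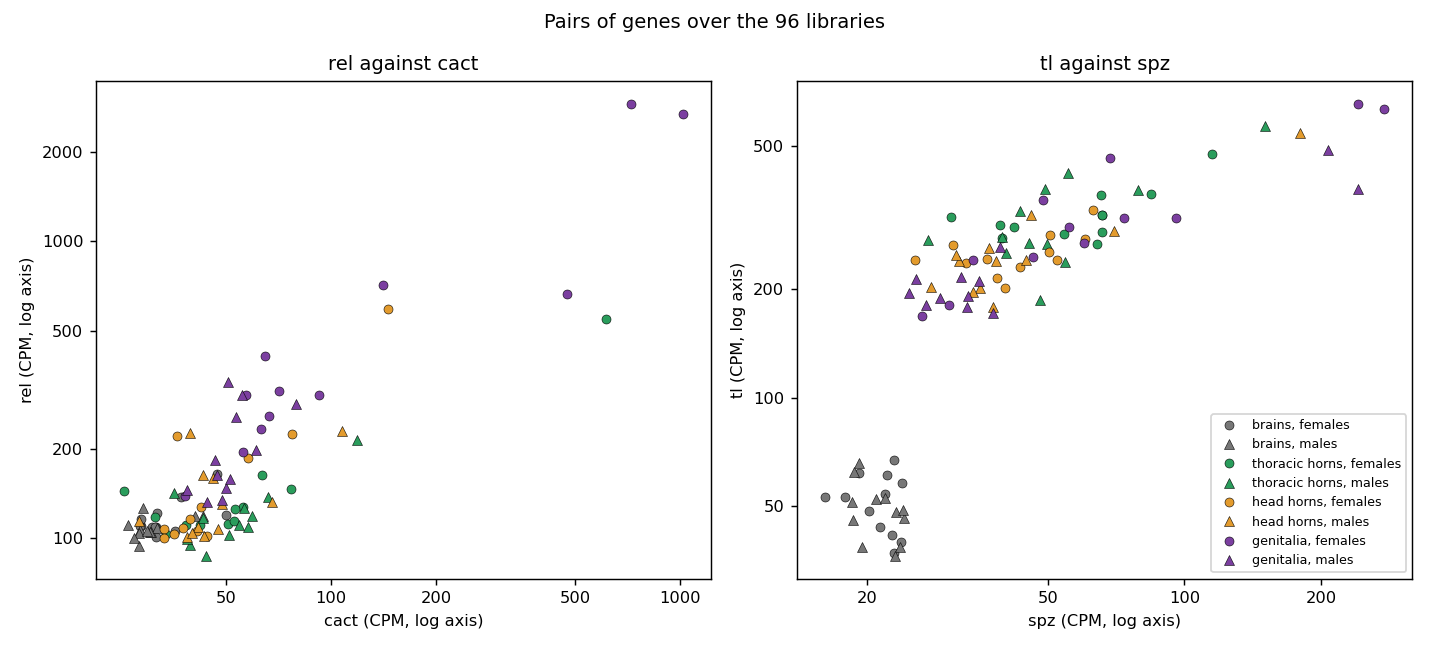
Each point is 1 of 96 libraries, with *rel* against *cact* (left) and *tl* against *spz* (right) in CPM on log axes; colour gives tissue and shape gives sex. The 4 libraries of genitalia highest in *cact* (141 to 1022 CPM) are all female, and brains lie apart from the epithelia for *tl*.

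In the wider pathway, genitalia of control females had 3 of 20 tested Toll arm genes higher and 2 lower, and 3 of 16 Imd arm genes higher, where 6.53% of all tested genes were higher and 3.73% lower. These calls had adjusted p-values of 0.026 to 0.048 (edgeR), in a comparison with 121 to 342 called genes when any library other than S89 was left out. The Spätzle family ligand *spz3* was higher without overlap, at 10.01 ± 6.98 CPM in females and 3.33 ± 0.87 CPM in males (SD, n = 6 each, log2 fold change 1.56, edgeR adjusted p = 0.042). Of the effectors, 0 of 6 were called by edgeR (2 at an unadjusted p under 0.05). Muscle markers also differed between the sexes: 9 of 15 were higher in females, with sums of 5055 to 13771 CPM in control females and 3863 to 5329 CPM in control males. Of 11 haemocyte markers 1 was higher, with sums of 1500 to 3837 CPM in control females and 1515 to 2265 CPM in control males. No marker of either list was at 0 in all libraries, and the part of these cells was not tested.

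The receptor *tl* was lower in brains than in every epithelium. In controls *tl* ranged from 36.4 to 67.3 CPM in brains (median 49.5), against 168 to 634 CPM over the 3 epithelia, without overlap. The log2 fold change of brains over the mean of the epithelia was -2.50 (SE 0.13, edgeR adjusted p = 1.5e-21). All 8 members were called, where 81.2% of all tested genes were (43% lower and 38.2% higher in brains). The ligand *spz* (-1.25) and *imd* (-1.02) were also lower in brains without overlap in CPM. Lower with overlap were *cact* (-1.32), *rel* (-0.85), *myd88* (-0.71) and *traf6* (-0.32). The share of all genes without overlap is not given, so non-overlap does not set these members apart. The kinase *pll* was higher in brains (0.39), at 22.7 ± 2.8 CPM, against 16.3 ± 2.3 CPM in thoracic horns (SD, n = 12 each).

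Between TMM and library totals, these directions held for *tl*, *spz*, *imd*, *cact* and *pll* only. In FPKM, *imd* averaged 20.3 in control brains, above thoracic horns (19.2) and head horns (18.1), and *cact* 21.8, above head horns (18.8). The FPKM of *spz* overlapped, at 6.39 to 9.51 in brains and 6.10 to 13.4 in head horns. The median of all genes was 0.76 on the log2 scale with library totals and -0.06 under TMM, and all called genes split into 7743 higher and 1879 lower in brains, against 4257 and 4791 under TMM. Under that scaling *tl* was at -1.64 and *pll* at 1.23, while *traf6* turned to 0.51, *myd88* to 0.13 and *rel* to 0.05. The call for *cact* was lost (adjusted p = 0.21).

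**Figure D5:**
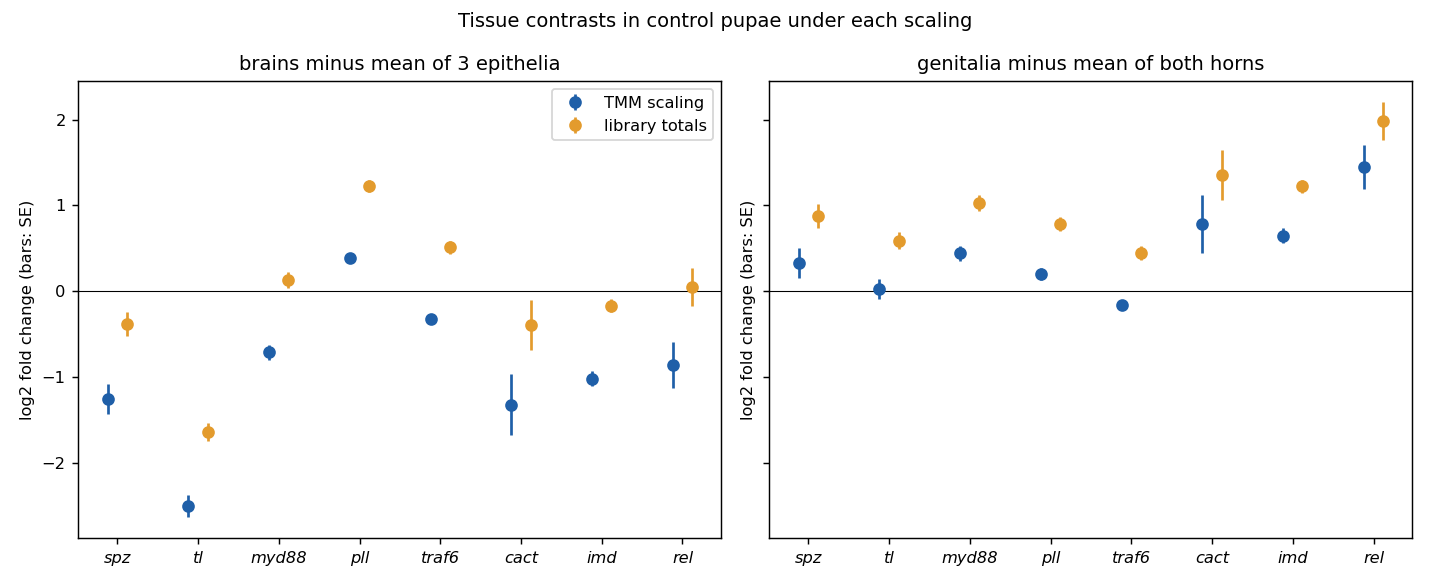
Log2 fold change (bars: SE) of each member in control pupae, brains over the mean of 3 epithelia (left) and genitalia over the mean of both horns (right), under TMM scaling and under library totals. The receptor *tl* stays below 0 in brains under both (-2.50 and -1.64), while *traf6* changes sign in both panels.

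Between genitalia and the horns of controls, *rel* (log2 fold change 1.45), *cact* (0.79), *imd* (0.65), *myd88* (0.44) and *pll* (0.20) were higher in genitalia and *traf6* (-0.16) was lower, 6 of 8 called by edgeR where 62.9% of all tested genes were (35.2% higher and 27.7% lower). The median of *imd* was 69.6 CPM in genitalia, against 54.996 CPM in head horns and 59.9 CPM in thoracic horns. In control males alone 3 members were called, and *cact* turned to -0.16. With library totals *traf6* turned to 0.45, and all called genes split into 8063 higher and 609 lower, against 3922 and 3090 under TMM. Between head and thoracic horns 0 of 8 were called by edgeR (12.3% of all genes; 3 members at an unadjusted p under 0.05, against 24.4% of all genes; 1 by DESeq2). The receptor *tl* came closest, at 241 ± 40 CPM in head horns and 317 ± 64 CPM in thoracic horns (SD, n = 12 each, log2 fold change -0.39, adjusted p = 0.051).

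Other pathway genes were also lower in brains than in the epithelia: 12 of 20 tested Toll arm genes, 13 of 16 Imd arm genes and 6 of 6 effectors. Of the same lists, 4 Toll arm genes and 1 Imd arm gene were higher. Of all tested genes, 43% were lower and 38.2% higher in brains. These lists were tested under TMM only, and with library totals all called genes split into 7743 higher and 1879 lower. The largest differences without overlap were those of the recognition gene *gnbp3* (log2 fold change -7.16), the thioester protein gene *tepiii* (-5.52), *snk* (-5.05), *gnbp2* (-4.70) and *tollo* (-4.58). Haemocyte markers were lower in brains for 7 of 11 and higher for 3, muscle markers lower for 14 of 15, and epidermis markers lower for 8 of 11 tested. Summed fat body markers (5 genes) went the other way, at 445 to 618 CPM in control brains and 187 to 450 CPM in control epithelia. Summed trachea markers (5 genes) ran from 67.8 to 194 CPM in control brains and from 2368 to 26835 CPM in control epithelia. The part of these cells was not tested.

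The genes whose levels were most like those of *tl*, *traf6* and *spz* were sought over the 16 group means among 8870 genes. For *tl* they were Dmel-Tmp-cg6426 (Pearson's r = 0.996), OTAU017477 (0.995) and OTAU013612 (0.994). For *traf6* they were *med27* (0.951), *cnep1r1* (0.951) and *sans* (0.950), and for *spz* they were *cg8654* (0.947), *syx13* (0.946) and *get4* (0.946). The groups share tissues, so these values describe likeness of level only.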

How the data were processed

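Counts per gene had been deposited by the authors, who trimmed reads with Trimmomatic 0.32, aligned them with TopHat2 2.1.0 to the *O. taurus* genome v0.5.3 and counted them with HTSeq 0.6.1p1. The authors also deposited FPKM values with gene names, used here for comparing levels between genes and, where named, between libraries and tissues. Members and gene lists were chosen with earlier results of these data known. Counts were tested in edgeR 4.0.16 (R 4.3.3; TMM scaling, filterByExpr, robust quasi-likelihood fit), with Benjamini-Hochberg adjustment over all tested genes and a threshold of 0.05. Each comparison of 2 groups used 12 libraries, interactions used 24 and tissue contrasts the 48 control libraries. DESeq2 1.42.0, its size factors, no filter, a fit over all 4 groups of a tissue, and each library left out in turn were tried as alternatives. Scaling by library totals was added after seeing the data. The procedure was tested on simulated data. Depth was 3615803 to 19008005 counts per library. P-values of tissue contrasts treat libraries as independent although pupae were shared. Overlap of groups is given for members and list genes only, without a share over all genes. Named were all members, and other pathway genes called without overlap (at most 5 per comparison), as well as the 3 genes most correlated with *tl*, *traf6* and *spz* among genes averaging at least 5 CPM. Of the names looked for, 22 of 49 (Toll arm), 17 of 37 (Imd arm) and 6 of 40 (effectors) were found. No column was left unused.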

Additional observations from a re-analysis of the deposited data

Results flagged for a closer look

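In 128 groups of 6 libraries (8 genes in 16 groups), 23 held a library whose gap to its neighbour exceeded Dixon's critical share of the group's range. All 23 were on the high side. The rate of about 1 in 20 for that share holds for normally distributed values, and unlogged CPM were used. It therefore gives no chance rate here, and the genes are not independent. In genitalia, S77 (dsxRNAi female) stood out for *cact* (1020 CPM), *rel* (2690 CPM), *spz* (241 CPM) and *tl* (655 CPM). Among control females of genitalia, S87 stood out for *rel* (2910 CPM) and S85 for *spz* (276 CPM). The control male S91 stood out for *cact* (79.5 CPM), *rel* (283 CPM) and *pll* (20.6 CPM).

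In thoracic horns, the dsxRNAi female S29 stood out for *imd* (119 CPM) and the dsxRNAi male S35 for *spz* (151 CPM). In FPKM, *imd* in S29 (25.2) lay close to S28 (24.2) of its own group. The control female S37 stood out for *cact* (613 CPM), *rel* (549 CPM) and *spz* (115 CPM), and the control male S43 for *cact* (119 CPM) and *rel* (214 CPM). In FPKM, *spz* in S37 (14.94) was not the highest of its group (15.03 in S41). In head horns, the dsxRNAi female S54 stood out for *cact* (146 CPM) and *rel* (590 CPM), and the dsxRNAi male S59 for *spz* (180 CPM). The control female S63 stood out there for *cact* (77.4 CPM) and *rel* (224 CPM). In brains, *rel* stood out in the dsxRNAi female S6 (164 CPM) and the dsxRNAi male S9 (126 CPM). In S37, S43, S54, S63, S77 and S91 the same library was the outlying one for both *cact* and *rel*. Because tissues were taken from the same pupae, outlying libraries of different tissues need not be different animals, and the labels do not say which are. In control males *cact* was the highest of its group in S19, S43, S67 and S91 (42.9, 119, 107 and 79.5 CPM). In control females it was the highest in S13, S37, S63 and S87 (50.1, 613, 77.4 and 721 CPM). Every group has 1 highest library, so neither set shows which libraries came from 1 pupa.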

How the results depend on the processing

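No paired analysis was possible because no label ties a library of one tissue to the pupa that gave another, no 2 groups have a library number in common, and the sexes and treatments are different animals. Of the counts of members called, that for control head horns between the sexes was 1, and 0 with all 4 groups in one fit or with library totals. For control genitalia between the sexes it was 1, against 4 with DESeq2, 0 with library totals and 0 to 6 when 1 library was left out. There DESeq2 called 1755 genes higher and 955 lower of 11646 tested. Between dsxRNAi sexes in genitalia it was 0, against 2 with DESeq2 and 0 to 1 with 1 library left out, the 1 being without S76. DESeq2 called 699 genes higher and 502 lower of 11298 tested, and 1680 genes were called in all without S76. The interaction in head horns gave 0, and 1 with DESeq2, which called 365 genes higher and 142 lower of 11807 tested. Head against thoracic horns gave 0, and 1 with DESeq2, without the filter or in control males only. DESeq2 called 802 genes higher and 800 lower of 12178 tested between the horns. Brains against epithelia gave 8, and 5 with library totals, and genitalia against horns gave 6, and 3 in control males only. Brains had the lowest mean of the 4 tissues for 7 members in CPM and for 2 in FPKM (*tl* and *spz*). With library totals the sign turned for *myd88* between the sexes in control genitalia (-0.014), for *myd88* (0.13), *traf6* (0.51) and *rel* (0.048) in brains against epithelia, and for *traf6* (0.45) in genitalia against horns. In control males only it turned for *cact* (-0.16) in genitalia against horns. The cause was not tested. The other counts of members called did not move, and 0 members were called in any dsxRNAi-against-control comparison under any setting run.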
